A study of Arabidopsis thaliana with 2 samples.

Results

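Glutamate receptor-like (GLR) genes encode plant relatives of the ionotropic glutamate receptors of animals. They were examined here in Arabidopsis seedlings that carry a synthetic oxygen sensor. Members were the probe sets that the platform annotation assigns to 1 gene and whose symbol starts with GLR or ATGLR followed by a digit, with the brightest probe set taken where a locus had several. This gave 8 genes among 13356 loci with a probe set of 1 gene, out of 20 loci of the family. They comprised 2 of the 4 clade 1 genes (ATGLR1.2 and GLR1.4), 3 of the 9 clade 2 genes (GLR2.7, GLR2.8 and GLR2.9) and 3 of the 7 clade 3 genes (GLR3.3, GLR3.5 and GLR3.6). No member had more than 1 probe set, so brightness chose between probe sets only outside the family. The family was chosen by its differences between these arrays, so the values below describe the 2 arrays and carry no test.

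RNA came from untreated 7-day-old Col-0 seedlings grown on agar medium with 1% sucrose, and was measured on 1 Affymetrix array per genotype. Triple expressor seedlings carried the fusion proteins AD-HIFCOOD and GBD-pVHL together with PHD3, and double expressor seedlings carried both fusions without PHD3. In animals, HIF switches on genes when oxygen is scarce, the enzyme PHD3 uses oxygen to hydroxylate prolines of HIF, and pVHL recognises the hydroxylated form. Both groups thus expressed sensor parts, and an array of plants without a transgene was not analysed here. Seedlings were genotyped one at a time by PCR. The promoters of the transgenes, the number of lines and the number of seedlings per array are not stated in the labels. Since each genotype has 1 array, neither a spread between replicates nor a p-value could be given, and the number of arrays limits the precision. In whole seedlings, fewer cells of a type and less RNA per cell cannot be told apart.

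GLR proteins assemble as channels that let calcium and other cations through membranes when amino acids such as glutamate bind outside the cell. The Arabidopsis family falls into 3 clades. Clade 3 members carry wound signals from leaf to leaf as electrical and calcium waves that precede jasmonate synthesis, and other members act in pollen tubes, roots, guard cells and the response to microbes.

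Of the 8 GLR genes, 6 were lower and 2 higher in the triple expressor, with a median log2 difference of -0.23 (triple minus double expressor). Over all 13356 loci 50.2% were lower and 47.9% higher, and the median difference was 0.00. All 3 clade 3 genes, the only members above the floor defined below, were lower by 0.20 to 0.30 on the log2 scale. The largest difference in the family was that of GLR1.4, at 1.63-fold lower, and it lay among weak signals. None of the 8 genes reached 2-fold, against 0.15% of all loci in either direction.

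Values are robust multi-array average (RMA) values, read as log2 from their range. A floor was set at the 40th percentile of all values on both arrays, 5.71, and a gene was counted above it when its brighter array reached it. By this count 3 of the 8 GLR genes were above the floor, against 55.7% of all loci. The 5 genes of clades 1 and 2 were below it on both arrays. The member nearest to the floor from below was GLR1.4, whose brighter array lay 0.37 under it. GLR3.5 was nearest from above, with its brighter array 0.85 over the floor, followed by GLR3.3 at 0.86 over it. Probe sets bind with different strength, so the floor and the percentiles rank signals and do not rank the amounts of RNA of different genes.

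**Figure D1:**
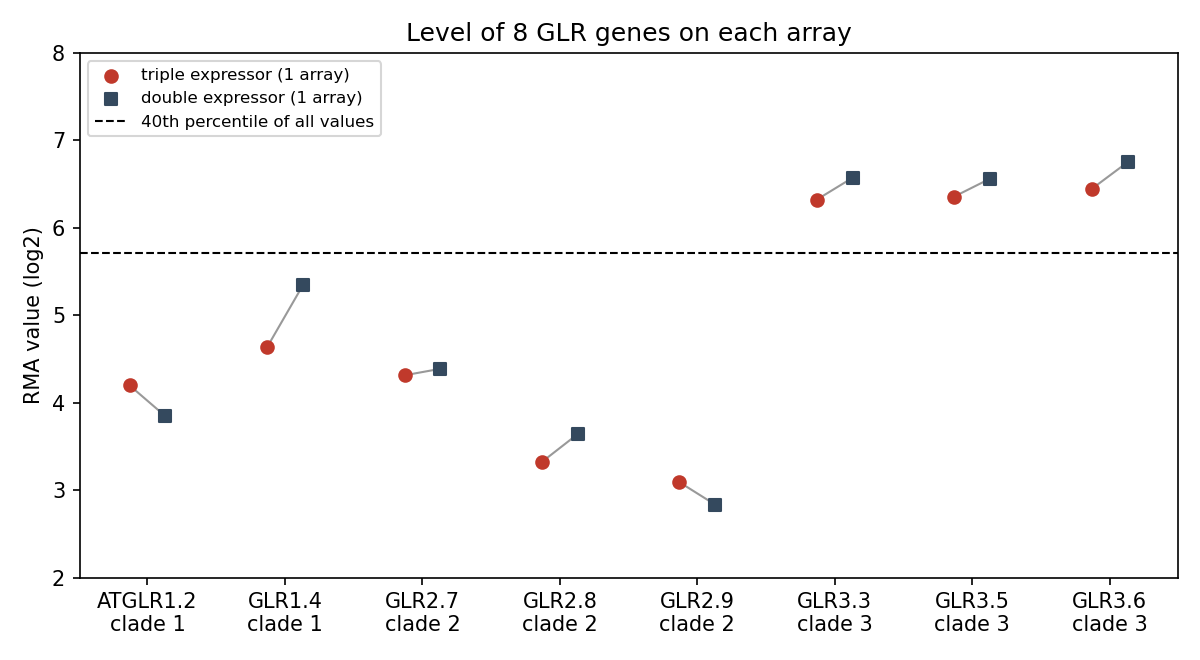
RMA values (log2) of the 8 GLR genes on the triple expressor array (circles) and the double expressor array (squares), with the 40th percentile of all values, 5.71, as a dashed line. Each point is 1 array. The 3 clade 3 genes lie above the line with the triple expressor lower, and the 5 genes of clades 1 and 2 lie below it.

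GLR3.3 (AT1G42540, probe set 256541_at) encodes a channel opened by a broad range of amino acids and needed, with GLR3.6, for wound signals to reach distant leaves. Its RMA value was 6.32 in the triple expressor and 6.57 in the double expressor, a difference of -0.25, or 1.19-fold lower. These values stood at the 47.3 percentile of all values in the triple and the 50.7 percentile in the double expressor, near the middle of the scale.

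GLR3.6 (AT3G51480, 252106_at), its partner in long-distance wound signalling, stood at 6.45 in the triple expressor and 6.75 in the double expressor. The difference of -0.30, or 1.24-fold lower, was the largest of the 3 clade 3 genes measured. GLR3.5 (AT2G32390, 266337_at) encodes a channel whose splice forms go to mitochondria or chloroplasts. It stood at 6.36 in the triple expressor and 6.56 in the double expressor, a difference of -0.20, or 1.15-fold lower.

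The clade 3 differences thus ran one way and were close in size. Among loci above the floor 46.4% were lower in the triple expressor, and their median difference was 0.02. By 1.2-fold or more, 1 of the 3 genes (GLR3.6) was lower, against 8.3% of loci above the floor. With each array centred on its median, GLR3.3 also passed that fold, at -0.28, as it did after lowess centring, at -0.27. With 32 added to the unlogged values, which damps differences between weak signals, GLR3.6 fell short of that fold, at -0.23. GLR3.3 and GLR3.5 stood at -0.18 and -0.15 on that scale. Differences of the size seen as deposited were common at the level of these genes. Of the 982 loci whose mean level was within 0.25 of that of GLR3.6, 17.8% were at least as far apart in either direction. The share was 25.7% of 930 loci for GLR3.3 and 36.8% of 932 loci for GLR3.5.

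GLR1.4 (AT3G07520, 259065_at) encodes a channel that, when expressed in frog oocytes, opens to methionine and several other amino acids. Its RMA value was 4.63 in the triple expressor and 5.34 in the double expressor, a difference of -0.71. It was the only member at least 1.5-fold apart, against 0.532% of all loci lower by that much and 1.71% in either direction. Of the 599 loci within 0.25 of its mean level, 1.84% were at least as far apart. The family was chosen by its differences and GLR1.4 had the largest, so these shares describe the gene and test nothing. GLR1.4 stayed below the floor on both arrays, at the 30.0 percentile in the triple and the 36.4 percentile in the double expressor. With 32 added to the unlogged values before taking log2, which damps differences between weak signals, its difference was -0.35.

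ATGLR1.2 (AT5G48400, 248700_at), the other clade 1 gene, is known for a calcium influx in pollen tubes that D-serine activates. It went the opposite way to GLR1.4, at 4.198 in the triple expressor and 3.846 in the double expressor, a difference of 0.35, or 1.28-fold higher. Of 1030 loci within 0.25 of its level, 11.7% were at least as far apart. With 32 added to the unlogged values the difference was 0.12. The pollen marker with a named probe set, AT5G07430, was also below the floor, at 3.25 in the triple and 3.41 in the double expressor.

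The clade 2 genes GLR2.7, GLR2.8 and GLR2.9 lie side by side on chromosome 2, with 0 protein-coding genes between neighbours in the TAIR10.1 gene table. They are known together for a calcium influx in response to molecules of microbes. GLR2.7 (AT2G29120, 266782_at) was at 4.31 in the triple expressor and 4.39 in the double expressor, a difference of -0.07. GLR2.8 (AT2G29110, 266780_at) was at 3.32 in the triple expressor and 3.64 in the double expressor, a difference of -0.32. GLR2.9 (AT2G29100, 266779_at) was at 3.09 in the triple expressor and 2.83 in the double expressor, a difference of 0.26.

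Neighbours in this cluster therefore went both ways, all at levels below the floor. Of the loci within 0.25 of each gene's level, 75.6% were at least as far apart as GLR2.7, 12.2% as GLR2.8 and 11.8% as GLR2.9. With 32 added to the unlogged values the differences of GLR2.8 and GLR2.9 were -0.08 and 0.05. A probe set shared by GLR2.2 and GLR2.3, likewise neighbours on chromosome 2, was not counted as a member because it names both genes. It stood at 3.16 in the triple expressor and 3.27 in the double expressor, a difference of -0.12.

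**Figure D2:**
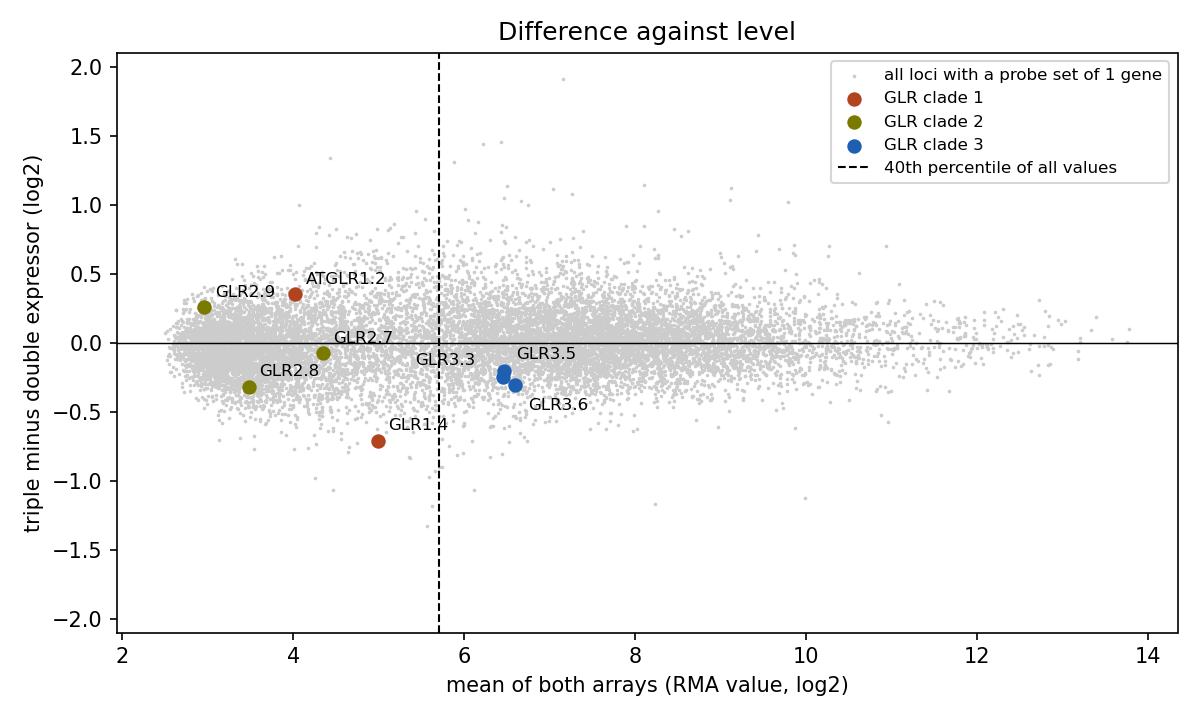
Difference between the triple and the double expressor (log2) against the mean of both arrays (RMA value, log2) for all loci with a probe set of 1 gene (grey) and the 8 GLR genes, coloured by clade. The dashed line marks the 40th percentile of all values. GLR1.4, at -0.71, lies at the lower edge of the loci at its level, and the clade 3 genes lie between -0.30 and -0.20 inside the grey cloud.

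Counted at 1.2-fold, 3 members were lower (GLR1.4, GLR2.8 and GLR3.6) and 1 was higher (ATGLR1.2). The share of all loci past that fold was 10.3% in each direction. The differences of GLR2.9, at 1.19-fold higher, and of GLR3.3, at 1.19-fold lower, were just short of it. Below the floor, 3 of the 5 members were lower and 2 higher, where 55.1% of the loci were lower and 41.6% higher.

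**Figure D3:**
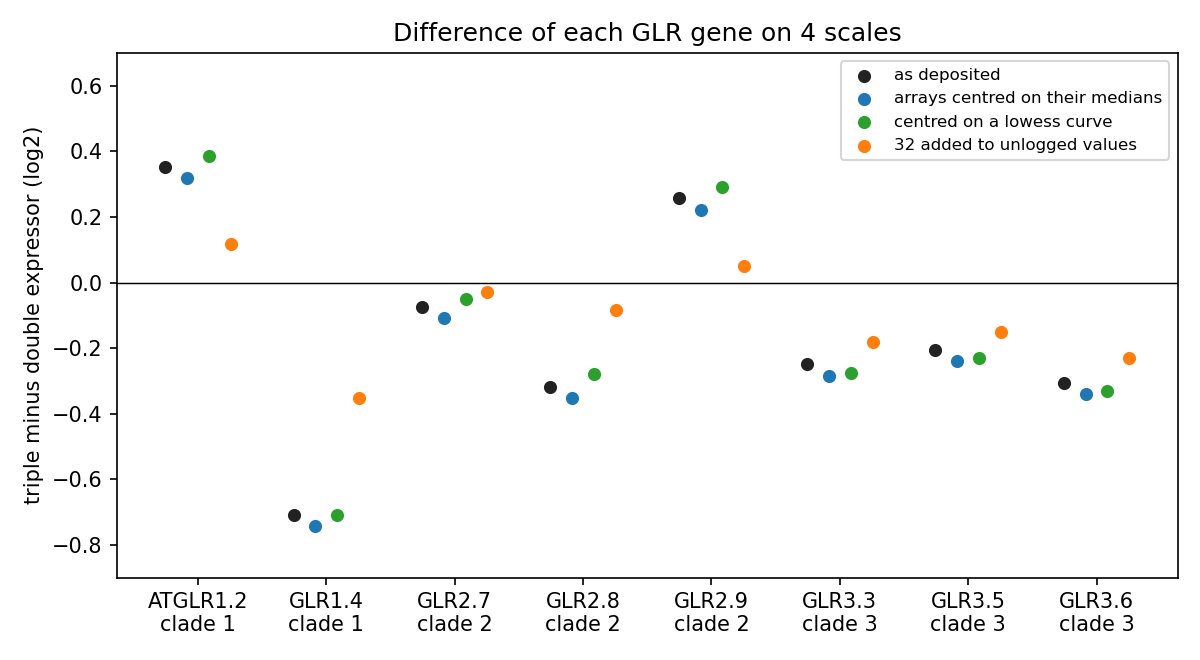
Difference between the triple and the double expressor (log2) for each GLR gene on 4 scales: as deposited, with each array centred on its median, centred on a lowess curve against level, and with 32 added to the unlogged values. Each gene keeps its direction on these scales, of which only lowess centring could have reversed one. Each moves closer to 0 on the damped scale, GLR1.4 to -0.35 and GLR3.6 to -0.23.

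Genes that work with GLR channels were sparsely named on this array. Of 7 lists, 4 had no member with a probe set naming 1 gene: cyclic nucleotide-gated channels, Shaker potassium channels, calcium pumps and wound-induced jasmonate genes. Probe sets without a name may still cover such genes. Cornichon homologues escort GLR channels through the secretory pathway, and 2 of the 5 loci listed for them had such a named probe set. AT1G62880 was at 6.44 in the triple expressor and 6.04 in the double expressor, a difference of 0.40, and AT3G12180 was at 7.34 in the triple expressor and 7.35 in the double expressor, a difference of -0.01. A weaker probe set of AT1G62880 went the opposite way, at 4.18 in the triple expressor and 4.39 in the double expressor, and the median of both loci, 0.20, was 0.05 with the probe sets of a locus averaged.

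The enzyme of the serine racemase gene SR (AT4G11640) makes the GLR agonist D-serine. Of 18 genes in glutamate and ligand metabolism, SR alone had a probe set naming 1 gene. It stood at 6.13 in the triple expressor and 6.28 in the double expressor, a difference of -0.15. Of 7 other calcium and mechanosensitive channel genes, AT4G22120 alone had a probe set naming 1 gene. It was at 7.55 in the triple and 7.38 in the double expressor.

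The seedlings' tissues were represented as labelled. All 5 green tissue markers were above the floor, with RMA values of 9.24 to 13.83 in the triple and 9.13 to 13.72 in the double expressor and a median difference of 0.10. All 5 root markers were above it too, at 6.20 to 13.02 in the triple and 5.75 to 12.86 in the double expressor. The root markers were higher in the triple expressor in 5 of 5 cases, by 0.16 to 0.50, where 47.9% of all loci were higher. Their direction was opposite to that of the clade 3 GLR genes. Of 18 hybridisation controls, 15 were higher on the triple expressor array, with a median of 0.16. The part of these shifts in the GLR values was not tested. Of 8 seed markers, OLEO3 alone had a probe set naming 1 gene. It was below the floor, at 3.95 in the triple and 4.04 in the double expressor.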

How the data were processed

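The authors deposited log2 values for 22810 probe sets on each of 2 arrays, produced by RMA according to the submitters' processing notes. The log2 scale was read from the range, 2.39 to 14.3, since the labels do not state it. RMA puts both arrays on one distribution of probe intensities, which hides any change common to most genes. Left out were 64 Affymetrix controls. Of the rest, the platform annotation, which can be old, names 1 gene for 13513 probe sets, several for 503 and none used here for 8730. Of those with 1 gene, 13436 matched the RefSeq gene table of TAIR10.1. No genome build is named with the probe sets, so positions are left out.

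Groups came from the sample titles. Differences are triple minus double expressor, with no model. Folds of 1.2, 1.5 and 2 were counted. All 8 members are named. Of each other planned list up to 3 genes by size of difference could be named. All measured CML and CHX genes, families added after their values were seen, are named outside that rule, and the markers are given as ranges, apart from AT5G07430 and OLEO3. Members and lists were chosen with earlier results of these data known. Alternatives were median centring, lowess centring (span 0.3), 32 added to unlogged values, averaging the probe sets of a locus, leaving out probe sets marked as shared, and floors at the 20th and 60th percentiles. The code was run on simulated data with larger changes, at higher mean levels, than those of the GLR genes. That run therefore does not cover the small folds counted here. Python 3.11.15, numpy 2.4.6, pandas 2.3.3, statsmodels 0.14.6 and matplotlib 3.10.9 were used.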

Additional observations from a re-analysis of the deposited data

How the results depend on the processing

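Every member kept its direction under the 5 alternatives that recompute single genes, but only lowess centring could have reversed one. Adding 32 cannot change a sign, and the shift by median centring is smaller than the smallest member difference, -0.07 for GLR2.7. The 40 recomputed differences include those from averaging or leaving out probe sets, which returned the deposited values. Of the 40, 4 moved by more than the spread of loci at their level, all with 32 added to the unlogged values. On that damped scale the family median was -0.12 in place of -0.23, 1 member was lower by at least 1.2-fold in place of 3, and 0 were higher in place of 1. The member still lower by that fold was GLR1.4, at -0.35, while GLR2.8 and GLR3.6 fell short of it. On that scale 0 members were lower by at least 1.5-fold in place of 1, and the medians of the cornichon and root marker lists were 0.14 and 0.30 in place of 0.20 and 0.40. This scale by construction shrinks differences of weak signals. Median centring shifted every difference by -0.03 and gave a family median of -0.26. Lowess centring gave -0.25 and 2 members higher by at least 1.2-fold in place of 1, as GLR2.9 reached 0.29. Under median and under lowess centring 4 members were lower by at least 1.2-fold in place of 3, as GLR3.3 passed that fold. Restricted to the 3 genes above the floor, the family median of the differences as deposited was -0.25. A floor at the 60th percentile, 7.17, left 0 members above it, and one at the 20th, 3.82, left 6. Averaging the probe sets of a locus took the cornichon median to 0.0462, and no member had more than 1 probe set or one marked as shared, so those alternatives say nothing about the GLR genes. Leaving out a replicate was not possible. No paired analysis was possible because there is a single array of each genotype.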

Other observations

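Calcium that enters through channels such as the GLR proteins is read by calmodulin-like (CML) sensors, which bind it and pass the signal on. This family and the next were taken by symbol after values had been seen. Of 7 CML genes with a named probe set, 6 were higher and 1 lower in the triple expressor, with a median difference of 0.32, where 47.9% of all loci were higher and 50.2% lower. CML38 was at 6.60 in the triple expressor and 5.72 in the double expressor, and CML42, known from leaf hairs and herbivore defence, was at 7.89 in the triple expressor and 7.52 in the double expressor. CML30 was at 6.70 in the triple expressor and 6.38 in the double expressor. Of the 6 higher genes, CML43 and CML37 barely differed, by 0.03 and 0.04, and CML37 lay below the floor. CML23 (4.13 in the triple and 3.60 in the double expressor) and CML41 (4.25 in the triple and 4.44 in the double expressor) lay below the floor. With 32 added to the unlogged values the CML median was 0.17.

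Cation/H+ exchangers of the CHX family move potassium and protons across membranes. Of 6 measured genes, 5 were lower and 1 higher in the triple expressor, with a median of -0.07, where 50.2% of all loci were lower and 47.9% higher. The largest difference was that of CHX15, below the floor, at 3.56 in the triple expressor and 4.07 in the double expressor. CHX19, the only higher gene and also below the floor, was at 4.23 in the triple expressor and 3.97 in the double expressor, a difference of 0.26. CHX20, a guard cell gene above the floor, was at 6.51 in the triple expressor and 6.72 in the double expressor. CHX16, also above the floor, differed by -0.08, and CHX21 and CHX6B, below it, by -0.06 and -0.04.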
